A study of Mus musculus with 248 samples.

Results

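The weekly series comprised blood RNA from 5 mice, each bled on 3 occasions, which made 15 bulk sequencing libraries out of 248 in the study as a whole. Members were chosen by their labels alone, as the weekly columns of the validation table, and comprised 9 libraries from 3 mice of the CM arm and 6 libraries from 2 mice of the Ctrl arm. CM mouse 3130 was sampled at weeks 20, 24 and 25, CM mouse 3131 at weeks 20, 24 and 28 and CM mouse 3200 at weeks 10, 14 and 18. Ctrl mouse 3127 was sampled at weeks 20, 24 and 28 and Ctrl mouse 3202 at weeks 10, 14 and 18. The comparison asked what changed in the blood of a CM mouse between its first and its last weekly sample, with the middle sample giving the order of change. The event from which the weeks were counted is not given in the sources used here.

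CM mice carried the Cbfb+/56M knock-in allele together with Mx1-Cre, on C57BL/6, and expressed the fusion after 7 doses of poly(I:C) at 14 mg/kg, given from an age of 4 to 8 weeks. Ctrl mice were littermates that lacked either or both alleles and had received the same poly(I:C) course. The labels give the genotype codes CHW for the 3 CM mice, CW for Ctrl mouse 3127 and WT for Ctrl mouse 3202. Mice 3130 and 3131 were female and the other 3 mice were male. Blood came from the retro-orbital sinus, the tissue is labelled PBMC, and leukemia was defined by over 20% cKit+ blasts. The Mx1 promoter that drives Cre answers to interferon in blood-forming cells and in some other tissues, so recombination is not confined to blood. For comparison, 6 CM mice of the same cohort with a leukemia library (L) and a library at month 0 (T0) were used. These were prepared without strand information, whereas the weekly libraries were stranded, and in the labels L and T0 came from different sequencing runs, so that run and leukemia cannot be told apart there.

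CBFB is the partner that helps RUNX proteins bind DNA, and the CBFB-MYH11 fusion, which arises from an inversion in human acute myeloid leukemia, joins it to the tail of smooth muscle myosin. The fusion blocks differentiation of blood progenitors, and leukemia follows after further changes. KIT, the receptor for stem cell factor, marks stem and progenitor cells and is kept in mast cells. Mast cells and basophils share the high-affinity IgE receptor, histamine synthesis and a set of granule proteases. In bulk blood RNA, fewer cells of a type and less RNA per cell cannot be told apart.

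The weekly libraries held 9722071 to 27384604 reads, and all carried the same sequencing run label. The first library of CM mouse 3131 stood apart, as it was the shallowest and held the most globin reads and the most transcripts of surface epithelium. The 4 globin genes took 11.2%, 1.74% and 0.503% of the reads in mouse 3130, in week order, and 23.3%, 1.14% and 0.673% in mouse 3131. In mouse 3200 they took 4.22%, 3.22% and 2.89%, and in the 6 Ctrl libraries 0.334% to 3.69%. The globin share was thus lower at each later sample of all 3 CM mice and was higher in the last than in the first library of both Ctrl mice. A list of 24 epithelial genes (keratins, mucins and junction proteins), chosen after its members were seen among the changed genes, summed to 5813 CPM (counts per 1000000 reads) in the first library of mouse 3131, to 414 CPM in that of mouse 3130 and to 1193 CPM in that of mouse 3200. The last CM libraries summed to 58.6 to 245 CPM, and the Ctrl libraries to 84.3 to 602 CPM. Between the first and last CM libraries 23 of the 24 genes fell and 1, the transcription factor Pax6, rose. Without mouse 3131, 17 fell and 1 rose, and their median moved from -5.62 to -4.07 log2. The keratin Krt5 and the secreted iron binder Ltf, which also sit in lists described here, moved with these genes. Ltf fell by 2.91 ± 0.86, and by 1.35 without mouse 3131, where it was not called (adjusted p 0.19). The part of globin and epithelial RNA in the other results was not tested. Results are given below for all 3 CM mice and, where the call or the value depends on it, without mouse 3131.

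**Figure D1:**
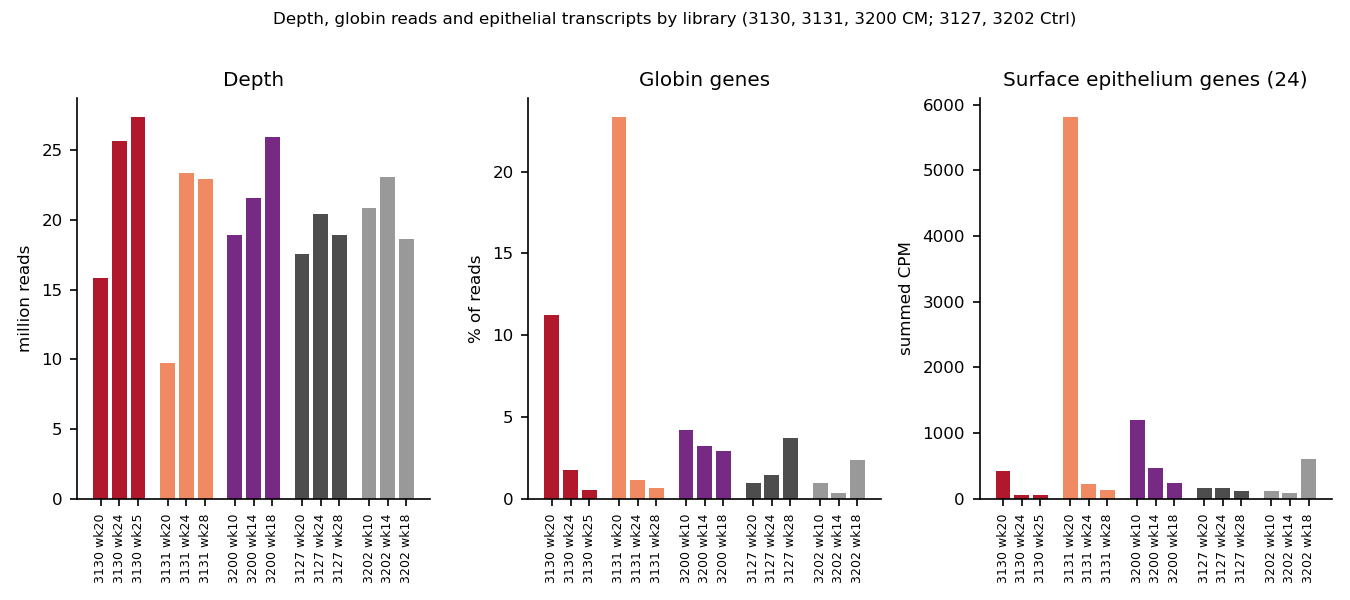
Bars give, for each of the 15 weekly libraries, the depth in reads (axis in units of 1000000), the percentage of reads in 4 globin genes and the summed CPM of 24 surface epithelium genes; mice 3130, 3131 and 3200 are CM, and 3127 and 3202 are Ctrl. The first library of CM mouse 3131 is the shallowest at 9722071 reads and the highest in both other panels, with 23.3% globin reads and 5813 CPM.

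Between the first and the last week 5964 of 13607 genes changed in CM mice at an adjusted p under 0.05 (limma, mouse as a block). Of all genes tested, 3181 (23.4%) rose and 2783 (20.5%) fell. Counts of list members called from first to last week are to be read beside these shares. In Ctrl mice the same fit called 0 genes (0%), though 211 had an unadjusted p under 0.05, and limma's voom on the recovered reads also called 0, with 169 unadjusted. The change in CM differed from the change in Ctrl for 2633 genes, of which 1147 (8.43%) were higher and 1486 (10.9%) lower in CM. This last count rests on both Ctrl mice, since it was 0 when either was left out, with 2571 genes unadjusted without mouse 3127 and 2667 without mouse 3202. The median of all genes moved by 0.17 log2 from first to last week in CM and by 0.01 after median-ratio scaling, so that changes below about that size depend on the scaling. The split of the CM calls also moved, to 3232 higher and 3422 lower after median-ratio scaling and 3520 and 2862 after quantile normalization. It was 2758 and 3369 with globin reads left out, and 2352 and 2826 without mouse 3131.

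Counted mouse by mouse, changes were wide in CM and narrow in Ctrl. Mouse 3130 had 1849 genes higher by over 1 log2 and 3162 lower, mouse 3200 had 1714 and 2651, and mouse 3131 had 4696 and 3194. Ctrl mouse 3127 had 871 higher and 304 lower, and Ctrl mouse 3202 had 633 and 256. Mouse 3131 had the most increases, and in it alone of the CM mice increases outnumbered decreases. In all 3 CM mice and beyond both Ctrl mice, 785 genes (5.77%) were higher by over 1 log2 and 1708 genes (12.6%) were lower. The changes of the CM mice ran alike across the 13607 genes, with Pearson's r of 0.663 between 3130 and 3131, 0.698 between 3130 and 3200 and 0.698 between 3131 and 3200, as a description, since genes are not independent and each mouse contributed 1 difference.

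Kit was among the genes that rose most. It stood at 5.62, 8.95 and 11.19 log2 CPM in mouse 3130, in week order, at 3.35, 8.05 and 9.70 in mouse 3131 and at 5.43, 6.44 and 9.27 in mouse 3200. The Ctrl libraries lay between 1.02 and 2.13. Every CM library was above every Ctrl library, and Kit was higher at each later sample of each CM mouse. The increase was 5.25 ± 0.51 log2 (± is the standard error), a 38.1-fold difference, with an adjusted p of 0.00011 (limma). It was larger than the change in Ctrl by 5.56 ± 0.81 (adjusted p 0.0074). Kit (chromosome 5, 75574987 to 75656722, GRCm38) already differed from Ctrl at the first week, by 2.95 ± 0.58 log2 (adjusted p 0.0093). Both Ctrl mice were male and 2 of the CM mice female, and with sex as a covariate 0 genes were called at the first week (1042 at an unadjusted p under 0.05), Kit included. With 1 library per mouse, that fit rests on male CM mouse 3200 against the 2 male Ctrl mice. It has little power, and calls lost in it cannot be credited to sex.

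The RUNX genes and their partner rose less. Runx1, the main RUNX factor of blood progenitors, stood at 6.95, 8.85 and 9.28 log2 CPM in mouse 3130, at 6.37, 8.18 and 8.86 in mouse 3131 and at 6.73, 7.87 and 8.45 in mouse 3200. The Ctrl libraries lay between 6.48 and 6.97. The first CM libraries lay among or below the Ctrl libraries and all later CM libraries were above them. Runx1 rose by 2.18 ± 0.21 log2 (limma, adjusted p 0.0001) and Runx2 by 1.84 ± 0.26 (adjusted p 0.00038). Runx3, which acts in lymphocytes and other lineages, was not called (0.15 log2). Cbfb began at 6.87, 6.09 and 6.84 log2 CPM in mice 3130, 3131 and 3200, below all 6 Ctrl libraries (7.23 to 7.69), and ended at 7.85, 8.35 and 7.63. It rose by 1.34 ± 0.27 (adjusted p 0.0023).

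The table holds a feature spelled MHY11, without a mouse gene identifier, and mouse Myh11 was not measured. MHY11 reached 3.85, 4.96 and 5.04 log2 CPM in mouse 3130, 2.81, 4.58 and 5.04 in mouse 3131 and 3.83, 4.40 and 4.52 in mouse 3200. Of the Ctrl libraries 5 held 0 reads of it and the other held 1 read, so the labels of the arms held for this feature. Its change of 1.37 ± 0.55 was not called (limma, adjusted p 0.067), although it was higher in the last library of all 3 mice. It passed the threshold in other fits, among them voom on recovered reads (adjusted p 0.0032) and the 9 CM libraries alone (0.013), and the range over the settings was 0.0032 to 0.32. Runx1t1, a corepressor gene, went opposite ways, from 2.71 to 5.12 log2 CPM in mouse 3130 and from 2.22 to 4.69 in mouse 3200, but from 1.05 to 0 reads in mouse 3131.

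Genes of basophils and mast cells rose together. Of 13 measured, 10 rose and 0 fell, with a median of 3.80 log2 against 0.17 for all genes. The test of CM against Ctrl change, which rests on both Ctrl mice, called 7 of the 13 higher, against 8.43% of all genes. Cpa3, the mast cell carboxypeptidase, stood at 6.94, 11.29 and 12.52 log2 CPM in mouse 3130, at 4.15, 5.83 and 9.77 in mouse 3131 and at 6.58, 8.80 and 11.06 in mouse 3200, against 2.23 to 2.74 in Ctrl. The arms did not overlap at any sample. Cpa3 rose by 5.23 ± 0.45 (limma, adjusted p 8.8e-05), or 37.5-fold. Cma1, the mast cell chymase (chromosome 14, 55941451 to 55944675), stood at 1.55, 8.86 and 11.36 in mouse 3130, at 2.58, 3.94 and 7.41 in mouse 3131 and at 2.87, 3.75 and 8.87 in mouse 3200. Ctrl libraries lay between 1.08 and 2.09, so that Cma1 overlapped with Ctrl in the first sample of mouse 3130 only. It rose by 6.88 ± 0.96 log2 (adjusted p 0.00037), and most of that change came late in mice 3131 and 3200.

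Fcer1a, the alpha chain of the IgE receptor, stood at 8.63, 11.29 and 11.92 log2 CPM in mouse 3130, at 4.39, 10.50 and 11.65 in mouse 3131 and at 7.41, 10.46 and 11.15 in mouse 3200, against 2.31 to 3.24 in Ctrl. All CM libraries were above all Ctrl libraries, and the larger step was from first to middle sample in each mouse. In mice 3131 and 3200 more of the Fcer1a change came by the middle sample than for Cpa3 and Cma1. Among all genes that rose, the median share reached by then was 90.5%, 86.3% and 80.2% in mice 3130, 3131 and 3200. Fcer1a rose by 4.76 ± 0.61 (limma, adjusted p 0.00023), and Ms4a2, the beta chain, by 4.03 ± 0.60 (adjusted p 0.00049). Il1rl1, the receptor of interleukin 33, rose by 4.49 ± 0.43 and Hdc, which makes histamine, by 3.80 ± 0.62. Gata2, a transcription factor of progenitors and mast cells, rose by 3.16 ± 0.43, the cytokine Il4 by 3.26 ± 0.59 and the basophil protease Mcpt8 by 3.62 ± 0.80. Mcpt1, a mucosal mast cell protease, was not called from first to last week (1.42 ± 0.56, adjusted p 0.062), and neither were Cyp11a1 and Tpsb2. Mrgprb2, a receptor of connective tissue mast cells, had 0 reads in all 3 first and all 6 Ctrl libraries and reached 3.19 log2 CPM in mouse 3130 and 1.44 in mouse 3200, but stayed at 0 reads in mouse 3131. Its call was lost without mouse 3130 (adjusted p 0.28) and without mouse 3200 (0.11), and no fold is given.

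Other genes were named for the largest increases by the smallest change over the 3 mice. Tph1, which makes serotonin in mast cells, stood at 4.27, 10.22 and 10.18 log2 CPM in mouse 3130, at 1.48, 3.62 and 10.11 in mouse 3131 and at 4.96, 7.67 and 10.51 in mouse 3200. The 6 Ctrl libraries held 9 reads of it in all. The 3 CM mice started at unlike levels and ended close together, and mouse 3130 had reached its last level by the middle sample. The increase was 6.70 ± 1.12 (limma, adjusted p 0.00089). Rnf128, a ubiquitin ligase, rose by 5.35 ± 0.41, the lysosomal nuclease Dnase2b by 5.16 ± 0.45, and Prnp, the prion protein, by 4.30 ± 0.24 with the lowest adjusted p of the 10 (1.8e-05). Atp8b5, a lipid flippase, the prostaglandin receptor Ptger3 and the histamine receptor Hrh4 rose by 5.81 ± 0.66, 4.83 ± 0.45 and 4.96 ± 0.51. All 10 of these genes were also called in the test of CM against Ctrl change, which says little beyond the rule that chose them for being beyond both Ctrl mice.

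**Figure D2:**
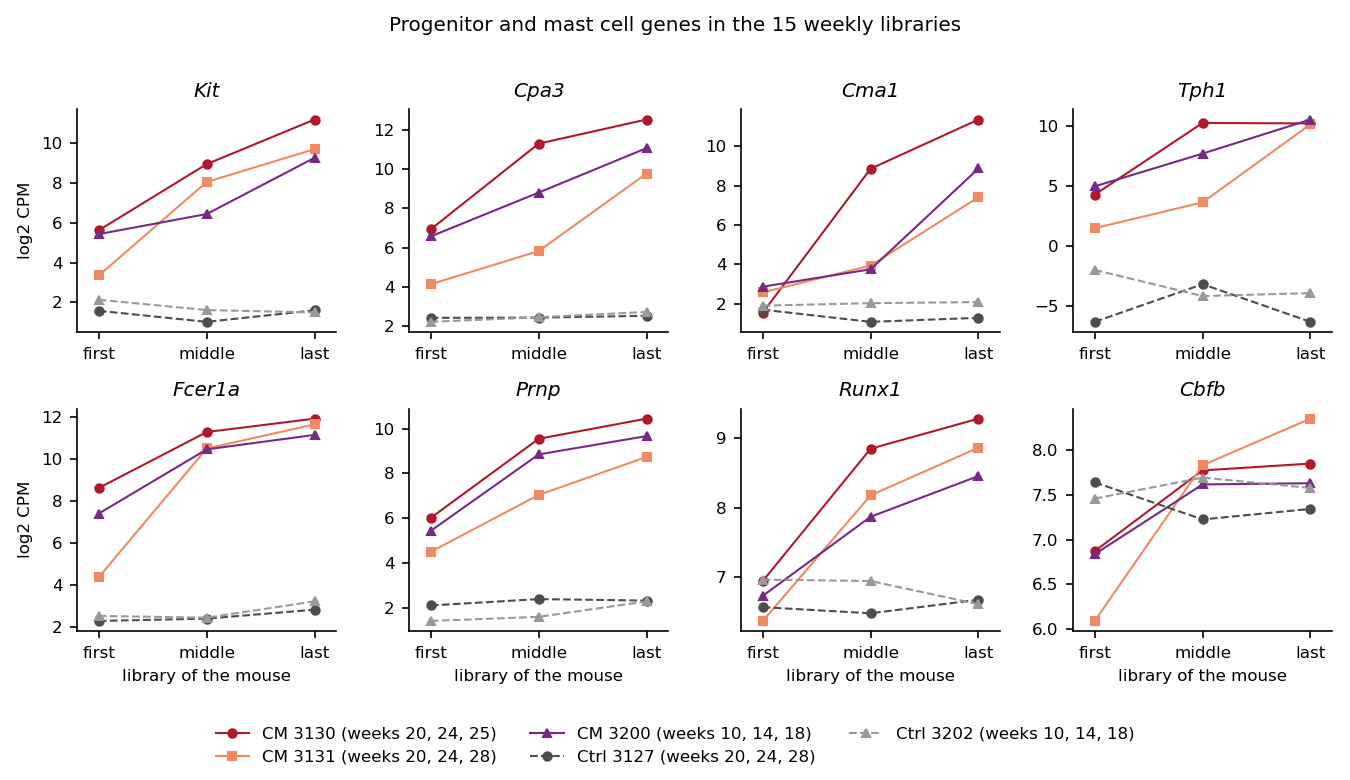
Each panel shows the log2 CPM of 1 gene (vertical axis, separate scale per panel) in the first, middle and last library of each mouse; solid lines are the 3 CM mice, dashed lines the 2 Ctrl mice, and each point is 1 library. Kit, Cpa3, Fcer1a and Prnp of the CM mice lie above Ctrl at all 3 samples, whereas Runx1 and Cbfb of the first CM libraries lie among or below Ctrl.

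The windows before the start sites of these genes were searched for the core motifs of RUNX and GATA factors, because RUNX factors bind with CBFB and Gata2 rose with the list. Promoter windows of 250 bases were found in the RefSeq table of GRCm38.p6 for 16 of 22 named genes. A gene with more than 1 window was counted if any of them held a core, whereas the shares over all are per window. The RUNX core (TGTGGT, on either strand) was in 2 of 9 genes that rose and in 0 of 6 that fell, and in 14% of all 32851 windows. The GATA core (AGATAA, on either strand; the letters of the cores do not overlap) was in 2 of 9 and 1 of 6, and in 9.99% of all windows. Both cores stood in the window of Cpa3, with the RUNX core on the opposite strand, 73 bases before the start, and the GATA core 46 bases before it. That start lies inside the annotated gene span, so the last 28 bases of the Cpa3 window were cut from the stretch printed. In Tph1 the RUNX core ended close to the start of the longer transcript, beginning 10 bases before it, and Dnase2b held 2 GATA cores, 205 and 31 bases before its start. Kit and Cma1 held neither in this window. The Cpa3 and Tph1 windows are shown 5′ to 3′ along the gene, outside the annotated gene, with the cores in capitals, as a description of the letters present and not of binding.
Cpa3, chr3:20242210-20242431, minus strand: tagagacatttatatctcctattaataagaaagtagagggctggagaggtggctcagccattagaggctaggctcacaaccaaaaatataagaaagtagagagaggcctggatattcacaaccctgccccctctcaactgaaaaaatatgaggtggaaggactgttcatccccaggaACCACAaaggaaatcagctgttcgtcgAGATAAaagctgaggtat
Tph1, chr7:46672538-46672787, minus strand: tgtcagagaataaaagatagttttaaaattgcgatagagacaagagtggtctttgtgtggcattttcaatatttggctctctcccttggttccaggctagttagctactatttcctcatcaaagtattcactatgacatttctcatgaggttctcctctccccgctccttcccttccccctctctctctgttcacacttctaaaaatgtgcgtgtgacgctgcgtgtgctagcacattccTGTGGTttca

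Stem and progenitor genes mostly rose. Of 19 measured, 10 rose and 3 fell, where 23.4% and 20.5% of all genes did, with a median of 1.48 log2. The test of CM against Ctrl change called 4 of the 19 higher and 2 lower, against 8.43% and 10.9% of all genes. Erg, a transcription factor of stem cells, stood at 3.02, 5.84 and 6.11 log2 CPM in mouse 3130, at 0.73, 4.80 and 5.42 in mouse 3131 and at 2.17, 4.86 and 5.50 in mouse 3200, against -2.55 to -0.89 in Ctrl. The arms did not overlap, and most of the increase was present by the middle sample. Erg rose by 3.70 ± 0.39 (limma, adjusted p 0.00013), Myb, which keeps progenitors dividing, by 3.24 ± 0.43 and Tal1 by 2.96 ± 0.48. The HOX genes Hoxa10 (3.95 ± 0.86) and Hoxa7 (5.10 ± 1.33, from 0 reads in the first library of mouse 3131) rose. Hoxa9 rose by 3.62 ± 0.95 with all mice, but was not called without mouse 3131 (2.93, adjusted p 0.092) or without mouse 3200 (3.84, adjusted p rounding to 0.05 from above). The homeobox gene Meis1 rose by 1.84 ± 0.47, but was not called without mouse 3130 (1.57, adjusted p 0.064) or without mouse 3200 (1.20, adjusted p 0.1), and Hlf rose by 1.48 ± 0.40, but was not called without mouse 3200 (1.06, adjusted p 0.14).

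The decreases in the stem and progenitor list were Sox4, Cd27 and Mecom. Sox4, a transcription factor, fell by 2.79 ± 0.43 log2 (limma, adjusted p 0.00057) and Cd27, a receptor that lymphocytes also carry, by 3.77 ± 0.46 (adjusted p 0.0002). Mecom fell by 4.56 ± 1.17, from low levels, and was not called without mouse 3131 (-3.81, adjusted p 0.063). Cd34, Flt3, Lmo2, Bcl11a and Myct1 were not called.

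Receptors for blood growth factors went both ways. Of 13, 6 rose and 3 fell, where 23.4% and 20.5% of all genes did. Csf2rb, the shared beta chain for interleukin 3, interleukin 5 and GM-CSF, stood at 8.56, 10.87 and 11 log2 CPM in mouse 3130, at 5.42, 8.75 and 9.82 in mouse 3131 and at 7.75, 10.26 and 11.23 in mouse 3200, against 5.98 to 6.96 in Ctrl. The first library of mouse 3131 was below Ctrl and every other CM library was above it. Csf2rb rose by 3.44 ± 0.34 (limma, adjusted p 0.00011), and its near copy Csf2rb2, whose reads may not be fully separable from it, by 3.23 ± 0.28. The interleukin 3 receptor chain Il3ra rose by 1.44 ± 0.33, the erythropoietin receptor Epor by 1.92 and the interleukin 9 receptor Il9r by 1.09. The call was lost without mouse 3130 for Il3ra (1.14, adjusted p 0.064) and without mouse 3131 for Epor (1.09, adjusted p 0.07). Il9r lost its call in 1 of the 16 settings run (limma, adjusted p 0.082). Csf3r, the G-CSF receptor of neutrophils, fell by 2.06 ± 0.31, Il6ra by 1.80 ± 0.26 and the eosinophil receptor chain Il5ra by 2.46 ± 0.41.

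Transcripts that earlier work on these data had picked as early or late in CM blood were already high at the first week, so their later course is not independent evidence. Of 12 early ones 11 were above Ctrl at the first week, against 5.33% of all genes (0 with sex as a covariate), and 5 rose further (1 fell), and of 10 early falling ones 6 fell further and 1 (Cplx2) rose. The fall among the early ones was Krt5, one of the epithelial genes. Wnt2, a secreted ligand from the late list of 4, had 0 reads in all 6 Ctrl libraries and stood at 6.09, 7.72 and 7.35 log2 CPM in mouse 3130, at 1.12, 6.35 and 6.86 in mouse 3131 and at 4.91, 7.93 and 7.76 in mouse 3200. It rose by 3.29 ± 0.68 (limma, adjusted p 0.003), and its level did not move further after the middle sample (-0.01 ± 0.68). Pkhd1l1, Igf1, Ccl24, Scin and Gstt1 were not called from first to last week.

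Most granule protein genes of promyelocytes rose. Of 8 measured, 6 rose and 1 fell, where 23.4% and 20.5% of all genes did, with a median of 2.55 log2. The test of CM against Ctrl change called 1 of the 8 higher and 0 lower, against 8.43% and 10.9% of all genes. Mpo, myeloperoxidase, stood at -1.13, 3.89 and 3.86 log2 CPM in mouse 3130, at 0 reads, -0.52 and -1.31 in mouse 3131 and at -1.20, 0.17 and 3.58 in mouse 3200, against -3.08 to -2.12 in Ctrl. The last libraries of mice 3130 and 3200 were high and that of mouse 3131 stayed low. Mpo rose by 4.92 ± 0.85 (limma, adjusted p 0.0011), Ctsg by 4.44 ± 1.13 and Prtn3 by 3.90 ± 0.72. Calr and Fcnb were not called without mouse 3131, nor Clec11a without mouse 3130 (adjusted p 0.052, 0.15 and 0.083), and Nkg7, which lymphocytes also express, fell by 1.53, but was not called without mouse 3130 (-0.82, adjusted p 0.083).

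Mature myeloid genes were mostly lower or flat. Of 14 neutrophil genes 7 fell and 1 rose, where 20.5% and 23.4% of all genes did, with a median of -0.85 log2. Their median change was -0.72, -0.96 and -1.02 in CM mice 3130, 3131 and 3200. It was 0.99 in Ctrl mouse 3127 and -0.78 in Ctrl mouse 3202, so 1 of the Ctrl mice moved as the CM mice did. The test of CM against Ctrl change called 3 of the 14 lower and 0 higher, against 10.9% and 8.43% of all genes. Il1b, an inflammatory cytokine of neutrophils and monocytes, stood at 7.53, 5.87 and 4.66 log2 CPM in mouse 3130, at 6.37, 5.65 and 4.62 in mouse 3131 and at 7.35, 6.92 and 5.54 in mouse 3200, against 7.68 to 8.79 in Ctrl. It fell at each step in each CM mouse, and all CM libraries were below all Ctrl libraries. Il1b fell by 2.14 ± 0.29 (limma, adjusted p 0.0003) and the chemokine receptor Cxcr2 by 1.89 ± 0.33. The calcium-binding proteins S100a8 and S100a9 fell by 1.03 and 1.11, but S100a8 was not called when any of the 3 CM mice was left out (adjusted p 0.051 to 0.081). S100a9 lost its call in 3 of the 16 settings run (limma, adjusted p up to 0.16). The increase was Ngp, a neutrophil granule protein (2.01 ± 0.67), which was not called without mouse 3130 (1, adjusted p 0.14) or without mouse 3200 (2.25, adjusted p 0.073). Without mouse 3131, 4 of the 14 fell. Of 14 monocyte genes 0 rose and 1 fell, the transcription factor Klf4 (1.12 ± 0.27 lower), with a median of -0.06. Klf4 lost its call in 2 of the 16 settings run (limma, adjusted p up to 0.12). Eosinophil genes held 2 decreases of 3 measured, Ccr3 and Il5ra.

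Genes of dendritic cells fell in 8 of 10, where 20.5% of all genes fell, with a median of -1.51 log2. Irf8, the transcription factor they depend on, stood at 6.63, 5.01 and 3.80 log2 CPM in mouse 3130, at 6.21, 6.08 and 3.51 in mouse 3131 and at 7.46, 5.95 and 5.31 in mouse 3200, against 8.07 to 8.48 in Ctrl. It was below Ctrl in all CM libraries and lowest in the last of each mouse. Irf8 fell by 2.56 ± 0.31 (limma, adjusted p 0.0002) and Clec9a, a receptor of conventional dendritic cells, by 2.93 ± 0.52. Siglech, a marker of plasmacytoid cells, fell by 2.21, but was not called without mouse 3130 (-1.15, adjusted p 0.12) or without mouse 3200 (-2.29, adjusted p 0.067). Zbtb46, Xcr1, Cd209a and Bst2 lost their calls in 7, 5, 2 and 2 of the 16 settings run. The test of CM against Ctrl change called 3 of the 10 lower, against 10.9% of all genes.

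Lymphocyte genes fell in all 3 CM mice. All 14 B cell genes fell, with a median of -3.45 log2, and the medians of the 3 mice were -3.55, -3.36 and -3.35, against -0.12 and -0.16 in the Ctrl mice. Cr2, the complement receptor of B cells (chromosome 1, 195136811 to 195176880), stood at 7.94, 5.32 and 3.86 log2 CPM in mouse 3130, at 7.78, 7.09 and 2.39 in mouse 3131 and at 8.55, 6.69 and 4.72 in mouse 3200, against 8.64 to 9.02 in Ctrl. Every CM library was below every Ctrl library, and in mouse 3131 most of the decrease came after the middle sample. Cr2 fell by 4.43 ± 0.47 (limma, adjusted p 0.00013). At the first week 13 of the 14 B cell genes were already below Ctrl, against 2.1% of all genes. With sex as a covariate, a fit of little power with 1 male CM mouse, these calls were lost. The 10 genes with the largest decreases by the smallest change over the 3 mice held Cr2, 4 immunoglobulin segments (Igkj3, Igkj5, Igkv8-27 and Ighj2), Crisp3, Mcoln3, Chst3, Xkrx and Ffar1. The segments fell by 3.86 to 5.01 log2, and their single values are uncertain because reads of near-identical segments can be split between them.

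T cell genes fell in 14 of 15, with a median of -3.61 log2. Cd4, the coreceptor of helper cells, stood at 6.79, 4.20 and 2.34 log2 CPM in mouse 3130, at 6.81, 5.68 and 1.82 in mouse 3131 and at 7.16, 5.40 and 4.39 in mouse 3200, against 4.90 to 6.48 in Ctrl. The first CM libraries were above all Ctrl libraries and the last were below them. Cd4 fell by 4.07 ± 0.52 (limma, adjusted p 0.00023) and the homing receptor Ccr7 by 3.90 ± 0.43. At the first week 0 of the 15 T cell genes were called against Ctrl. The test of CM against Ctrl change, which rests on both Ctrl mice, called 14 of the 15 T cell genes lower. It called 14 of the 14 B cell genes lower, against 10.9% of all genes. Lat, the adaptor of T cell receptors that mast cells also use, rose by 0.98 ± 0.26, but was not called without mouse 3131 (0.88, adjusted p 0.064). Of 12 natural killer and cytotoxic genes 10 fell and 0 rose, with a median of -2.42, among them the receptor Ncr1 (3.13 ± 0.47 lower) and perforin, Prf1 (3.39 ± 0.40 lower). Klra8 fell by 1.69 but was not called without mouse 3131 (-1.44, adjusted p 0.074) and went to 0.22 after quantile normalization. All 8 MHC class II genes fell, with a median of -2.88, and their activator Ciita fell by 3.24 ± 0.27.

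**Figure D3:**
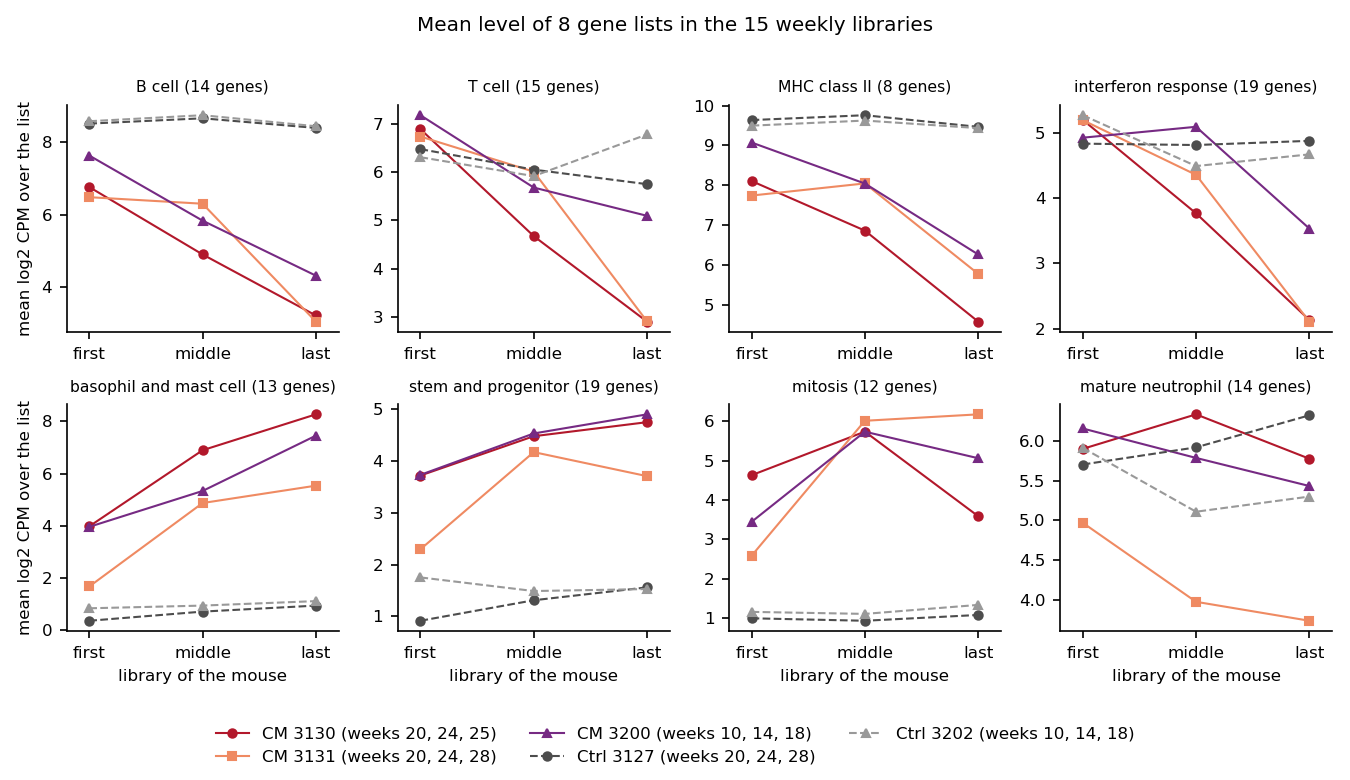
Each panel shows the mean log2 CPM over the measured genes of 1 list (vertical axis, separate scale per panel) in the first, middle and last library of each mouse; solid lines are the 3 CM mice and dashed lines the 2 Ctrl mice. B cell, T cell and MHC class II genes are lowest in the last CM libraries, and in mouse 3131 most of that fall comes after the middle sample.

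Interferon-induced genes fell. From first to last week 17 of 19 fell and 0 rose, with a median of -2.56 log2 (-2.98, -3.27 and -1.34 in mice 3130, 3131 and 3200). Oas2, an antiviral enzyme, stood at 3.69, 2.68 and -0.66 log2 CPM in mouse 3130, at 3.28, 2.61 and -2.12 in mouse 3131 and at 3.40, 3.61 and 0.80 in mouse 3200, against 3.21 to 4.75 in Ctrl. All 3 last CM libraries were below every other library. Oas2 fell by 4.11 ± 0.48 (limma, adjusted p 0.00017), a 17.3-fold drop. At the middle sample 2 of the 19 genes had risen and 2 had fallen, against 20.9% and 7.7% of all genes, and from middle to last 11 fell, against 4.06% of all genes. Their summed level nevertheless moved early in 2 of the mice, from 4298 to 801 and 227 CPM in mouse 3130 and from 4720 to 863 and 300 CPM in mouse 3131, where it was 1589, 1576 and 778 CPM in mouse 3200. A sum follows the most abundant genes, and the median of single genes at the middle sample was -1.42, -0.84 and 0.14 log2 in these mice. Rsad2, viperin, was highest in the first CM libraries (11.76, 11.93 and 9.84) and fell by 4.02 ± 0.77, with Ctrl libraries between 5.91 and 8.78. The first libraries of all 3 CM mice were above all Ctrl libraries. Globin was also highest in the first library of each CM mouse, and its part in this result was not tested. The test of CM against Ctrl change, which rests on both Ctrl mice, called 11 of the 19 lower, against 10.9% of all genes.

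Genes of dividing cells rose and then diverged between mice. By the middle sample 10 of 12 DNA replication genes and 11 of 12 mitosis genes had risen, with medians of 1.87 and 2.18 log2, against 20.9% of all genes. From first to last week 1 of 12 was called in each list, Mcm6 and Ccnb1, and neither was called without mouse 3131 (adjusted p 0.12 and 0.31). Top2a, a topoisomerase of dividing cells, stood at 7.71, 8.52 and 6.40 log2 CPM in mouse 3130, at 5.30, 8.96 and 9.02 in mouse 3131 and at 6.35, 8.76 and 7.89 in mouse 3200, against 3.43 to 3.88 in Ctrl. All CM libraries were above Ctrl, and mouse 3130 ended below its own start, at an interval of 1 week after its middle sample. The median change of the mitosis genes was -1.02 in mouse 3130, 3.70 in mouse 3131 and 1.60 in mouse 3200, and that of the replication genes was -1.03, 2.87 and 1.16. Without mouse 3131, 0 mitosis genes were called, and 1 replication gene fell.

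Glycolysis genes rose in 6 of 10 and fell in 0, where 23.4% of all genes rose, with a median of 1.01 log2, among them Aldoa (1.86 ± 0.25), Ldha (1.68 ± 0.34) and Pfkp (1.58 ± 0.21). The same count of 6 was found without mouse 3131. Of 9 MYC factors and targets 4 rose, where 23.4% of all genes did. Among them were Myc itself (1.21 ± 0.33, limma, adjusted p 0.012) and the polyamine enzyme Srm (1.70 ± 0.40). Myc and Srm each lost their call in 1 of the 16 settings run (limma, adjusted p 0.1 and 0.067). The median change of the 9 genes was -0.29, 1.78 and 0.70 log2 in mice 3130, 3131 and 3200. Of 12 nucleolar genes 3 rose, a share near that of all genes, namely Npm1, Fbl and Pes1, and all 3 calls were lost without mouse 3131 (adjusted p 0.12, 0.1 and 0.066).

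Red cell genes went both ways. Of 12 measured, 4 rose and 2 fell, where 23.4% and 20.5% of all genes did. The median of the list was 0.28 log2, and without mouse 3131 the counts were 1 and 0. The test of CM against Ctrl change called 0 of the 12 higher and 3 lower, against 8.43% and 10.9% of all genes. Klf1, a master regulator of red cells, stood at 5.67, 6.93 and 6.32 log2 CPM in mouse 3130, at 1.85, 7.04 and 7.17 in mouse 3131 and at 4.36, 6.98 and 6.57 in mouse 3200, against -2.42 to -0.62 in Ctrl. All CM libraries were above all Ctrl libraries, and the middle and last samples of each CM mouse were close. Klf1 rose by 2.73 ± 0.72 (limma, adjusted p 0.011) and Gata1 by 2.65 ± 0.60, and without mouse 3131 neither was called (adjusted p 0.065 and 0.062). Alas2, which starts heme synthesis in red cells, fell by 2.96 ± 0.74, and Hba-a1 by 2.51 ± 0.68, again not called without mouse 3131 (adjusted p 0.084 and 0.11). At the first week 11 of the 12 red cell genes were above Ctrl, against 5.33% of all genes. With sex as a covariate, a fit of little power with 1 male CM mouse, these calls were lost. Of 13 platelet genes 1 rose, Gp1ba (1.22 ± 0.36), which was not called without mouse 3130 or without mouse 3200 (adjusted p 0.1 and 0.11) and, among the scalings, not after median-ratio scaling, quantile normalization or leaving out globin. Their median was -0.81 with all mice and 0.85 without mouse 3131.

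Cytokine genes went both ways. Of 11, 4 rose and 3 fell, where 23.4% and 20.5% of all genes did. Il6 stood at 1.07, 5.02 and 5.21 log2 CPM in mouse 3130, at -0.67, 1.37 and 5.29 in mouse 3131 and at 1.09, 3.78 and 4.71 in mouse 3200, against 0.27 to 1.07 in Ctrl. The first CM library of mouse 3131 was below the Ctrl range, those of the other CM mice were at its upper end, and the last 3 were above it. Il6 rose by 4.57 ± 0.59 (limma, adjusted p 0.00025), or 23.7-fold, oncostatin M (Osm) by 1.82 ± 0.24 and Il13 by 3.52 ± 0.91. Il13 was not called without mouse 3131 (2.28, adjusted p 0.088). Il1a fell by 3.78 ± 0.67, and Ccl4 by 1.76, but Ccl4 was not called without mouse 3130 (-1.04, adjusted p 0.18) or without either Ctrl mouse, and stood at -0.01 after quantile normalization.

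Of 7 immune checkpoint genes 3 rose and 2 fell, where 23.4% and 20.5% of all genes did. Havcr2, which encodes TIM-3, stood at 4.66, 6.97 and 7.66 log2 CPM in mouse 3130, at 2.45, 4.00 and 5.98 in mouse 3131 and at 3.78, 5.55 and 7.22 in mouse 3200, against 3.39 to 3.90 in Ctrl. It rose at each step in each CM mouse, and all 3 last libraries were above Ctrl. Havcr2 rose by 3.33 ± 0.25 (limma, adjusted p 5.2e-05), its ligand Lgals9 by 1.75 ± 0.25 and Cd47, the signal that restrains phagocytes, by 1.19 ± 0.25. Cd47 lost its call in 1 of the 16 settings run (limma, adjusted p 0.058). Ctla4 and Vsir fell by 2.28 ± 0.45 and 1.02 ± 0.19. Of 12 immediate early genes 4 rose and 2 fell, again near the shares of all genes (23.4% and 20.5%). Egr1 rose by 1.96 ± 0.49, but not without mouse 3130 (1.11, adjusted p 0.053), and Dusp1 fell by 1.10 ± 0.30, but not without mouse 3131 (-0.76, adjusted p 0.072).

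**Figure D4:**
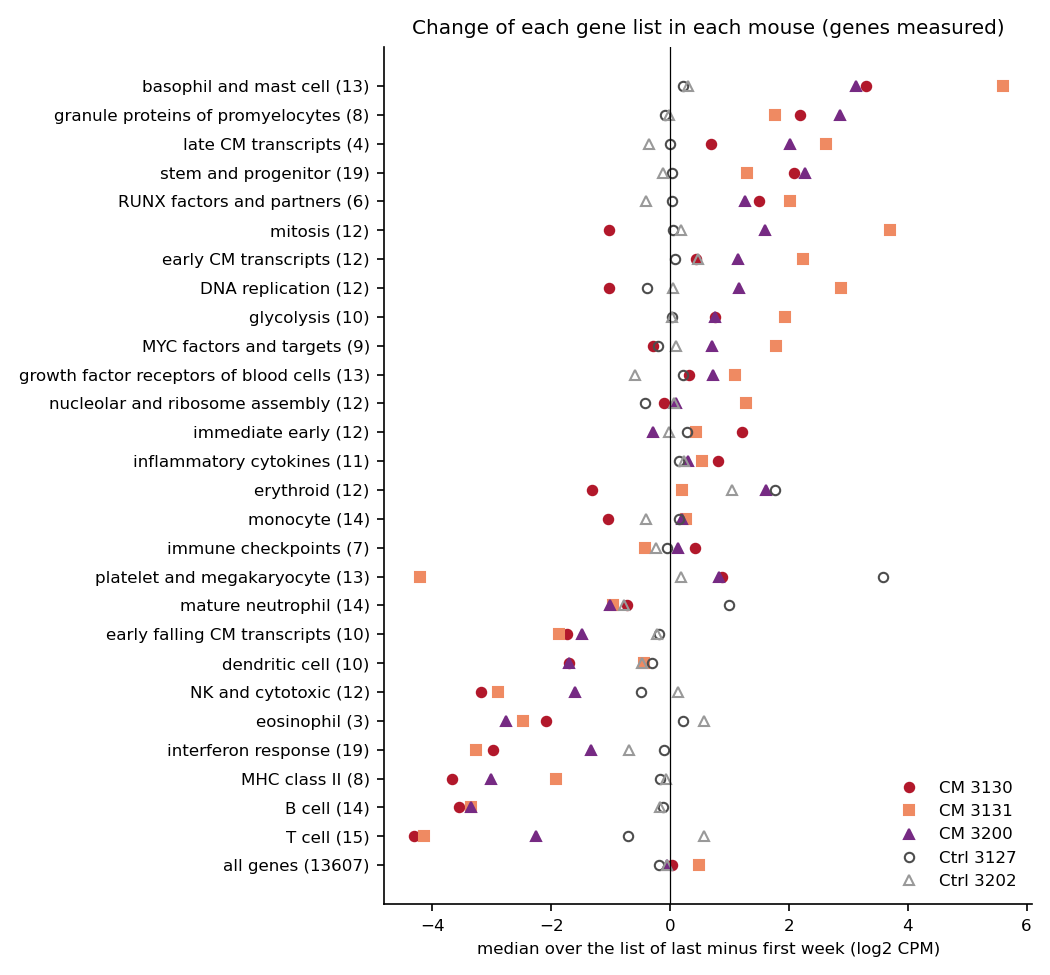
Points give, for each gene list (rows, with the number of genes measured) and each mouse, the median over the list of last minus first week in log2 CPM; filled symbols are the 3 CM mice and open symbols the 2 Ctrl mice. B cell genes sit between -3.55 and -3.35 in the CM mice, whereas mitosis genes spread from -1.02 to 3.70.

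The order of change was read from the middle sample. From first to middle sample 3893 genes were called in CM, 2845 (20.9%) higher and 1048 (7.7%) lower. This split depended on scaling, being 2242 and 1994 after median-ratio scaling, 2561 and 2201 after quantile normalization and 2356 and 1514 with globin reads left out. From middle to last sample 585 genes were called, 33 (0.243%) higher and 552 (4.06%) lower, or 86 and 344 after median-ratio scaling and 150 in all after quantile normalization. Of the 3181 genes that rose over the whole series 2366 (74.4%) were called at the middle sample and 33 (1.04%) from middle to last. Of the 2783 that fell 1033 (37.1%) were called at the middle and 549 (19.7%) from middle to last. Among the genes that rose over the whole series, the median share of the change reached by the middle sample was 90.5%, 86.3% and 80.2% in mice 3130, 3131 and 3200. For those that fell it was 60.1%, 21.7% and 68.5%, so that in mouse 3131 most of the decrease came after the middle sample and in the other 2 mice before it. Mouse 3130 was sampled at weeks 20, 24 and 25, mouse 3131 at 20, 24 and 28, and mouse 3200 at 10, 14 and 18. The last step was thus shortest in mouse 3130, so the pooled steps are unequal in length and the shares are not rates. These shares are a description, since the same first libraries enter both differences.

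The calls from middle to last sample were the least stable. Their number was 0 without either Ctrl mouse and in the 9 CM libraries alone, where 1798 genes had an unadjusted p under 0.05, 267 without mouse 3130 and 189 without mouse 3131. The middle calls numbered 1438 and 1422 without Ctrl mouse 3127 or 3202 and 1484 without mouse 3130. Among the late increases were Kit (2.24 ± 0.51, limma, adjusted p 0.037), Cpa3 (2.48 ± 0.45), Mitf (2.13 ± 0.42), the master regulator of mast cells and pigment cells, and Cd63 (3.35 ± 0.74), a membrane protein of mast cell granules. Mitf stood at 3.02, 6.21 and 7.59 log2 CPM in mouse 3130, at 1.63, 3.22 and 6.53 in mouse 3131 and at 3.12, 4.64 and 6.34 in mouse 3200, against 1.90 to 2.49 in Ctrl. It was above Ctrl in all CM libraries except the first of mouse 3131. Rgs1, a regulator of G protein signals, rose late by 1.78 ± 0.36. Late decreases included those of Cd209a (3.89 ± 0.79 lower), a lectin of dendritic cells, the interferon-induced Oas2 (3.63 ± 0.48 lower), Clca4 (3.42 lower), Pglyrp4 (3.36 lower), which encodes a peptidoglycan recognition protein, and Rtp4 (3.08 ± 0.43 lower), also induced by interferon.

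Against Ctrl, 1011 genes differed at the first week, 725 (5.33%) higher and 286 (2.1%) lower in CM, or 320, with 241 higher and 79 lower, after median-ratio scaling. At the last week 3804 genes differed, 2000 (14.7%) higher and 1804 (13.3%) lower. With sex as a covariate the counts were 0 and 924. Without Ctrl mouse 3127 the last-week count was 484 and without 3202 it was 504, and without CM mouse 3200 the first-week count was 499. Of the basophil and mast cell genes 6 of 13 were above Ctrl at the first week and 10 of 13 at the last. Stem and progenitor genes held 8 of 19 and 10 of 19 above Ctrl. Of the genes that rose over the weeks, 216 (6.79%) were already called higher at the first week, against 5.33% of all genes. Of those that fell, 220 (7.91%) were already called lower, against 2.1% of all genes. The first CM libraries enter both comparisons with opposite sign, so these shares are a description only.

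The change over weeks was set beside that of the 6 leukemia mice, whose L libraries were compared with their own T0. That comparison called 8772 genes, 4278 (31.4%) higher and 4494 (33%) lower in L (limma, mouse as a block). The genes that rose over the weeks and those higher in L shared 2733, which is 85.9% of the weekly list and 63.9% of the L list. Those that fell shared 2475, 88.9% and 55.1%. Opposite calls numbered 12 and 6. Across the 13607 genes the weekly and the L change had a Pearson's r of 0.823, as a description. The mice and libraries of these comparisons are distinct, but levels are not compared between them because their preparation differed.

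Some lists moved further in L than over the weeks, and others less. Basophil and mast cell genes had a median of 6.93 log2 in L against T0 and 3.80 over the weeks, and 11 of 13 were higher. Stem and progenitor genes had 3.91 against 1.48. The first weekly libraries were already above Ctrl for many of these genes, whereas T0 was the month 0 sample, so the starting points differ. T cell genes had -2.11 in L against -3.61 over the weeks, and B cell genes -4.82 against -3.45. Mitosis genes were higher in L in 12 of 12, and DNA replication genes in 11 of 12, where 1 of 12 was called over the weeks in each. These differences between the cohorts were not tested.

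**Figure D5:**
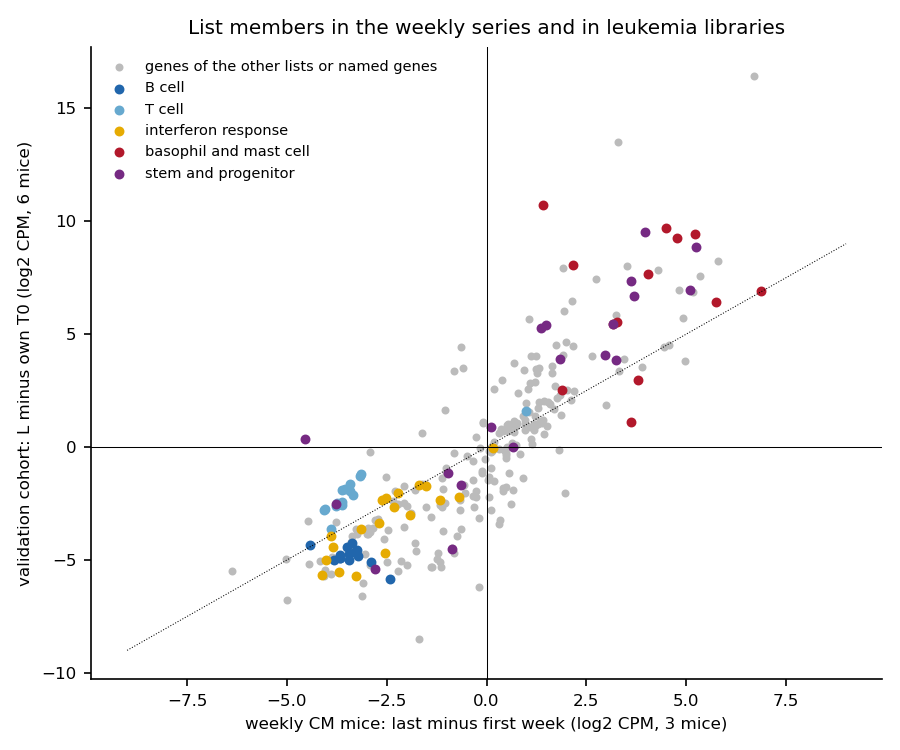
Each point is a gene named here or in a list, with last minus first week in the 3 weekly CM mice on the horizontal axis and L minus own T0 in 6 other CM mice on the vertical axis, both in log2 CPM; colours mark 5 lists, and the dotted line marks equal change. B cell and interferon genes lie at lower left and most basophil and mast cell genes at upper right; the highest points, among them Tph1, rest on T0 libraries with 0 reads, where the value depends on the added fraction of a read.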

How the data were processed

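Blood RNA of the 15 weekly libraries, and of 6 L and 6 T0 libraries, was read from the validation table of 116 libraries. The submitters' processing notes name STAR, Subread featureCounts and the build GRCm38, while the sources used here give no versions. The authors deposited log2 CPM for 13607 genes, and the table's name gives a filter of 5 CPM in 2 samples. The values turned back into whole reads for 100% of entries (tolerance 0.01 reads), with a prior of 0.25 reads, so that 0 reads stands at -6.30 log2 CPM. A count of 0 allows up to 3 reads per library, for counting error only, and weekly depth was 9722071 to 27384604 reads.

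Gene symbols came from the supplied name table for 12612 identifiers, with 1200 updated to RefSeq symbols. Fits used limma 3.58.1 in R 4.3.3 on the deposited log2 values, with terms for arm and position (first, middle, last) over all 15 libraries, a trend of the variance with intensity and two-sided moderated tests, adjusted by Benjamini-Hochberg across 13607 genes. A call is an adjusted p under 0.05. The mouse was the block, since same-numbered libraries came from the same animal per the labels; CM against Ctrl at 1 week was fitted without it. Replicates are separate mice. For 6 mice L was fitted against own T0, again with the mouse blocked. Tests were checked on simulated data.

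Members and lists were chosen with earlier results of these data known. Genes named are those with a mean log2 CPM above 1, a symbol that is not a clone name, the same direction in all 3 CM mice and a smallest CM change beyond both Ctrl changes, ranked by that smallest change (10 each way), the members of each list with the largest changes or a call, and Kit, Cbfb, Myh11 and MHY11. Epithelial, histone, late and opposite genes were named after their values were seen. Alternatives were other scalings (median-ratio, quantile, globin left out), voom on recovered reads (5900 calls), a prior of 2 reads, low genes left out, no trend, no block, CM libraries alone, sex as covariate, week 24 of mouse 3130 in place of week 25, and each mouse left out. The globin alternative and leaving out L mice were added after seeing the data. Tables were made with Python 3.11.15. The reference genome supplied is of another build and was not used here.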

Additional observations from a re-analysis of the deposited data

Results flagged for a closer look

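Change between the first and last week differed between the CM and Ctrl arms for 2633 genes, by a test of the difference itself (limma). That count was 0 without either Ctrl mouse.

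In the 6 leukemia mice, 66 groups of 6 values were examined for a sample far from the others, and 14 values stood out. The groups were L, T0 and L minus T0 of the same genes and mice, so 1 library could be flagged more than once. Where the other mice are tied at 0 reads, any read is flagged. The usual rate of about 1 in 20 groups holds for independent groups and does not apply here. Mouse 2684 had the lowest L levels of Cma1 (4.84 log2 CPM), Cpa3 (8.50), Dnase2b (3.65) and Hrh4 (0.99), and its changes from T0 were 1.97 log2 for Cma1 and 6.67 for Cpa3. At T0, mouse 2708 had a Tph1 level of -3.95 where the others had 0 reads, and mouse 2690 was low for Atp8b5 (-2.47), Ptger3 (0.55) and Igkv8-27 (2.38). Mouse 2731 kept the highest L level of Cr2 (5.13), a change of -2.42 log2. Mouse 2718 held 0 reads of Igkv8-27 in L (-6.30), a fitted change of -9.42 that depends on the added fraction of a read.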

How the results depend on the processing

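Of 181 called genes examined one by one, 180 kept their direction under every setting run, and the other, Klra8, went to 0.22 after quantile normalization. That count concerns direction only, and many of the 181 genes lost their call in at least 1 setting. All of them had a call in the main fit, so a kept direction was likely from the start and says little about how firm the calls are. Uncalled genes that changed sign without mouse 3131 had, over the mice left out, -0.0057 to 3.71 (Cdk1), -2.19 to 0.25 (Clec1b), -0.10 to 1.29 (Csf1r), -0.25 to 2.78 (Gins2), -2.14 to 0.12 (Gp6), -2.15 to 0.35 (Gp9) and -0.28 to 1.53 (Ear2). Without the replicate block that pairs libraries of a mouse, calls numbered 6308 in CM last against first week, 0 in Ctrl, 2509 for the difference, 4196 at the middle, 183 (not 585) from middle to last and 9145 in L. In CM last against first week, Clec11a, Cplx2, Fcnb, Hlf, Il13, Klra8, Mmp9, Mrgprb2, Ngp, S100a8, S100a9, Siglech and Xist lost their calls without the block, Bub1 and Tyms gained one, and no other named gene changed its call. Leaving out 1 mouse at a time gave 4680 to 5453 CM calls, 0 to 1 Ctrl calls, 0 to 2937 for the difference, 1422 to 4010 at the middle, 0 to 761 from middle to last, 499 to 1363 at the first week, 484 to 3933 at the last and 7667 to 8550 in L. Other counts that moved by over 1.5 times were 2913 CM calls in the 6 first and last CM libraries alone, 1369 middle calls in the 9 CM libraries alone and 0 from middle to last there (1798 unadjusted). The difference held 162 calls on per-mouse differences (3 against 2) and 1530 with week 24 of mouse 3130. From middle to last there were 150 calls after quantile normalization and 354 without the trend. Median-ratio scaling left 320 first-week calls, and sex as a covariate left 0 there and 924 at the last week. With 2 Ctrl mice, a change in Ctrl and its difference from CM are measured with few degrees of freedom. The causes were not tested.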

Other observations

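MHY11 was present in all 6 T0 libraries of the leukemia mice, at 3.52 to 4.02 log2 CPM, and at 4.68 to 5.39 in L, whereas the 6 weekly Ctrl libraries held 1 read in all.

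Some genes moved one way in 2 of the CM mice and the other way in the remaining one, each by over 1 log2. Mouse 3130 was lower where the others were higher for 90 genes (0.661% of all), among them Atp2b4, Rrm2 and Ccna2. Ccna2, a cyclin, went from 5.72 to 4.05 log2 CPM in mouse 3130, from 5 to 6.92 in mouse 3131 and from 4.13 to 5.92 in mouse 3200. Mouse 3131 was lower where the others were higher for 65 genes (0.478%). Enah, an actin regulator, stood at -0.26, 7.57 and 8.96 log2 CPM in mouse 3130 and at 1.32, 0.86 and 7.79 in mouse 3200, but at 2.08, -0.71 and -1.66 in mouse 3131. Cyp11a1, which starts steroid synthesis, ended at 7.66 and 6.49 in mice 3130 and 3200 and at -2.80 in mouse 3131. Mouse 3200 was lower where the others were higher for 10 genes, led by the actin severing protein Scin, and higher where they were lower for 15, among them the red cell anion exchanger Slc4a1.

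The 41 replication-dependent histone genes measured summed to 1860, 1868 and 476 CPM in mouse 3130, to 734, 2727 and 3683 CPM in mouse 3131 and to 1220, 3225 and 1665 CPM in mouse 3200, against 408 to 812 CPM in Ctrl. Xist, the RNA of the inactive X chromosome, stood at 9.43, 10.05 and 10.40 log2 CPM in female mouse 3130 and at 8.94, 8.53 and 5.04 in female mouse 3131, the only one of these values below 8.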
